A study of Mus musculus with 2 samples.

Results

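Class 3 semaphorins are secreted guidance proteins and neuropilins are the receptors that bind most of them. The 6 semaphorin genes Sema3a, Sema3b, Sema3c, Sema3d, Sema3e and Sema3f and the 2 neuropilin genes Nrp1 and Nrp2 were followed through the stromal cells of grafted mouse intestine. These 8 genes were taken by symbol from the 28692 features of the count matrices, and all 8 were found once in each matrix. The data were single-cell RNA-seq counts from 2 libraries, 1 of grafted large intestine (LI) and 1 of grafted small intestine (SI). In both groups, whose strain label is EYFP (C57BL/6), the intestine came from mid-gestation embryos of EYFP males and C57BL/6Nrj females, whose cells carry a yellow fluorescent protein, and it was left for 4 weeks beneath the kidney capsule of adult recipients that were wild type (WT). Both groups were sorted through the same gate, which kept live YFP+ cells with Itgb1 on the surface and removed haematopoietic (CD45, Ter119), BP3+, endothelial (CD31), epithelial (EpCAM) and L1CAM+ cells. L1CAM, used in the sort as a marker of glia, is itself known as a partner of neuropilin-1 on the surface of neurons. Several grafts had been pooled for the LI library and the number of grafts behind the SI library was not stated, so each group is 1 library and no test between groups was possible.

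Class 3 semaphorins act at a distance from the cell that makes them. A secreted class 3 semaphorin binds a neuropilin, and the neuropilin, whose own tail within the cell is short, signals through a plexin beside it. Sema3a is the classic repellent of axons and acts mainly through Nrp1, Sema3f acts mainly through Nrp2, and Sema3c can use either. Sema3e is the exception, since it can bind plexin D1 with no neuropilin. Neuropilins also bind vascular endothelial growth factors and are best known from endothelial cells and growing axons, both of which the sort removed. Fibroblasts, pericytes and smooth muscle cells were the largest named groups among the sorted cells.

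The genes lie in few places of the genome (GENCODE vM21 on GRCm38, the mm10 build of the files). Sema3d (chr5:12383385-12588948), Sema3a (chr5:13125414-13602565), Sema3e (chr5:14025276-14256689) and Sema3c (chr5:17574281-17730268) follow each other on the plus strand of chromosome 5 within 5.35 Mb. Sema3b (chr9:107597674-107609229) and Sema3f (chr9:107681500-107710475) lie 0.0723 Mb apart on the minus strand of chromosome 9. Nrp1 (chr8:128358604-128503363) and Nrp2 (chr1:62703285-62818695) are on chromosomes of their own. Sema3a and Nrp2 are shown with the sequence before a start site because, among the 8 classes with 50 or more cells in both libraries, both were highest in smooth muscle-like cells in each library. The letters are RefSeq sequence (GRCm38.p6, plus strand), given in lower case with any CTTTGA or CTTTGT on either strand (core letters bound by TCF/LEF factors of Wnt signalling) in capitals, and the Nrp2 stretch stops before its first GENCODE exon.
Sema3a (chr5:13396534-13396783): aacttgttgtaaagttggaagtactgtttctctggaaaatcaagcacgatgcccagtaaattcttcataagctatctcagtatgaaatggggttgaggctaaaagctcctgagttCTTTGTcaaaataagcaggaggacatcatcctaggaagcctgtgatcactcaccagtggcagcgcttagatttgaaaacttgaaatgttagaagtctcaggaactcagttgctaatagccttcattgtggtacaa
Nrp2 (chr1:62703067-62703284): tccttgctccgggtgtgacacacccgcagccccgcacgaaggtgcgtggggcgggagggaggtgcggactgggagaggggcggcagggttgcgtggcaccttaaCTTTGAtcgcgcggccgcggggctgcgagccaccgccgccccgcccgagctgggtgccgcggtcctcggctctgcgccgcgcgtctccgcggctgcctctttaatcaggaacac

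The 2 stretches were unlike. Over the 250 bases before the RefSeq start, GC content was 40.8% for Sema3a and 72.4% for Nrp2, against a median of 52.4% over 32851 such windows. The letters CTTTGA or CTTTGT, which overlapped no other motif searched in these windows, occurred once in each window, and 27.6% of all windows held them. The GC box GGGCGG, searched on both strands, occurred 5 times before Nrp2 and not before Sema3a, and 32.7% of windows held it. The CArG box, a pattern known from smooth muscle genes, occurred in neither window and in 1.47% of all windows, and the TATA box TATAAA in neither and in 12.4%. These are matches of letters and not sites. The Sema3a window lies inside the gene as GENCODE draws it, because some of its 9 transcripts start further upstream.

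Of 11568 LI and 9631 SI barcodes, 8882 and 7259 were retained, with a median of 5147 and 5547 UMIs (unique molecular identifiers, 1 per captured RNA molecule) per cell. The libraries shared 26 barcodes, 14 of them among retained cells. Each library was clustered alone into 18 clusters with the 8 genes kept out of the clustering, and clusters were named from marker lists as "-like" classes, with 732 LI and 930 SI cells left unnamed. The name other FB stands for fibroblasts whose cluster fell under none of the subsets. The CD81-like fibroblast (FB) cluster of each library and the LI adventitial-like cluster held none of their markers among their 10 leading genes, and the heat shock gene Dnajb1 was among those of both CD81-like clusters. The CD81 markers Ackr4 and Grem1 were instead among the leading genes of LI clusters called other FB. Ackr4 was found in the cluster led by Kcnn3 and Jam2, and Grem1 in the one led by Areg and Ereg. When both libraries were clustered together, the SMC-like, PDGFRAhi-like and pericyte-like cells of the 2 grafts fell into the same clusters, with 93.6%, 84.6% and 83.0% of their distribution shared, but the Fgfr2-like, CD81-like, adventitial-like and MHC class II-high FB shared only 2.49%, 6.55%, 5.80% and 1.15%, with the remaining fibroblasts at 27.7%. In those 4 classes the LI and SI cells are therefore different clusters under 1 name, and so in large part are the remaining fibroblasts. The cells also differed in sex, called from Xist and Y-linked genes. Male cells made up 9.09% of LI and 24.3% of SI cells, and 332 and 293 of the 807 male LI cells lay in 2 clusters, the MHC class II-high FB and an FB cluster led by Areg and Ereg. Levels below are pooled CPM, the UMIs of a gene scaled to a fixed total of all UMIs of a class, with an exact 95% Poisson interval, and shares of cells with a UMI have exact 95% Clopper-Pearson intervals. Where a class is called highest, lowest or next, classes under 50 cells in that library are left out of the order. Both kinds of interval cover counting error only, and a CPM cannot tell fewer expressing cells from less RNA in each.

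Sema3a, the ligand that repels sensory and sympathetic axons, was highest in the smooth muscle-like (SMC-like) cells of both grafts. In the LI graft these cells held 105 CPM (91.7 to 120.3) and in the SI graft 19.2 CPM (14.2 to 25.3). Among classes with 50 or more cells, that was in both libraries above the next class beyond counting error, at 15.4 CPM in LI Fgfr2-like FB and 3.45 CPM in SI MHC class II-high FB. A UMI of Sema3a was found in 34.1% of LI and 9.46% of SI SMC-like cells, against 0.191% of LI and none of the 733 SI pericyte-like cells, where a count of 0, read as under 3 cells, allows up to 0.409% of cells with a UMI (exact upper bound 0.502%). Median depth was alike, at 4664 and 4998 UMIs in the SMC-like and 4032 and 4231 in the pericyte-like cells. The SMC-like cells were 4.59% of LI cells and held 38.6% of the Sema3a UMIs, and in the SI graft 5.83% of cells held 42.7%. The SI class was made of 2 clusters, at 34.7 CPM in the one led by Actg2 and 11.5 CPM in the one led by Npnt, and both were below the LI cluster.

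Among fibroblasts, 3 classes held more Sema3a in the LI graft. LI PDGFRAhi-like FB held 13.5 CPM (9.89 to 17.9, 47 UMIs) and SI PDGFRAhi-like FB 1.66 CPM (0.341 to 4.84, 3 UMIs). LI Fgfr2-like FB held 15.4 CPM (13.1 to 18.0) and SI Fgfr2-like FB 1.17 CPM (0.469 to 2.41). LI CD81-like FB were at 5.21 CPM and SI CD81-like FB at 0.745 CPM. Markers of other cell types also differed, their part in these Sema3a differences not tested. The 3 erythroid markers were at 0 in LI and summed to 237 CPM in SI CD81-like FB, with 2 raised. The 6 endothelial markers summed to 5.44 CPM in LI and 45.8 CPM in SI PDGFRAhi-like FB, with 1 raised and Pecam1, Cdh5, Cldn5 and Tie1 at 0 in SI. The 7 pericyte markers were 84.8 CPM in LI and 365 CPM in SI PDGFRAhi-like FB, with 1 raised in SI. They were 162 and 966 CPM in CD81-like FB and 124 and 1237 CPM in Fgfr2-like FB, with none raised. The 5 interstitial cell of Cajal markers were 95.1 CPM in LI and 188 CPM in SI PDGFRAhi-like FB, with 1 raised in SI. In the other 3 FB classes Sema3a was between 0.656 and 3.45 CPM in both grafts, and there the interval of the LI over SI ratio held no difference. LI interstitial cell of Cajal-like (ICC-like) cells, the pacemaker cells of the gut muscle, held 11.7 CPM in 262 cells. The SI graft had only 32 such cells, with no Sema3a UMI, where 3 UMIs would be 21.2 CPM. The exact upper bound there, 26.0 CPM, is above the LI level, so no difference can be read.

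Sema3b and Sema3f, neighbours on chromosome 9, were high in different fibroblasts. Sema3b was highest in CD81-like FB in both grafts, at 31.1 CPM (26.4 to 36.4) in LI and 23.0 CPM (19.5 to 26.9) in SI. Adventitial-like FB followed at 18.4 and 21.9 CPM, which in the SI graft did not differ from CD81-like FB beyond counting error. Sema3b was 5.73 and 2.76 CPM in PDGFRAhi-like FB and 1.75 and 2.02 CPM in pericyte-like cells. The LI other FB clusters with the CD81 markers Ackr4 and Grem1 among their leading genes held 6.38 and 1.30 CPM of Sema3b. No Sema3b UMI was found in the 262 LI ICC-like cells.

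Sema3f, the main Nrp2 ligand of the class, was highest in PDGFRAhi-like FB, the cells that lie under the epithelium. LI cells of this class held 47.8 CPM (40.9 to 55.7) and SI cells 46.3 CPM (37.0 to 57.4), with a log2 ratio of 0.04 with an interval of -0.33 to 0.43. A UMI was found in 20.8% of LI and 19.6% of SI PDGFRAhi-like FB, against 1.09% and 3.39% of adventitial-like FB, which were deeper in the LI graft (14699 UMIs per cell against 4998). Fgfr2-like FB came next, at 16.3 CPM in LI and 24.2 CPM in SI. Every other class with 50 or more cells lay between 0.783 and 10.7 CPM.

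Sema3d was not detected where Sema3f was highest, and among the SI classes it was highest in adventitial-like FB. Not 1 UMI of Sema3d was found in the 669 LI or the 336 SI PDGFRAhi-like FB, where 3 UMIs would be 0.859 and 1.66 CPM and the exact upper bounds are 1.06 and 2.04 CPM. SI adventitial-like FB, led by Pi16 and Igfbp6, held 49.0 CPM (42.8 to 55.8), above the next class (14.9 CPM) beyond counting error, and 42.4% of all SI Sema3d UMIs. The 7 mesothelial markers read beside it summed to 104 CPM in these cells, with 1 of the 7 raised and Upk3b and Muc16 at 0, against at most 4.41 CPM in the other SI classes. In the LI graft the markers were 109 CPM in MHC class II-high FB, which held 10.1 CPM of Sema3d, 67.3 CPM in adventitial-like FB and 60.4 CPM in the other FB. Their part in the Sema3d level was not tested. In the LI graft the adventitial-like cluster held only 14.9 CPM (11.7 to 18.6), and the highest large cluster was an FB cluster of 1255 cells led by Myoc and Lpl, at 30.2 CPM. Myoc was also among the 10 leading genes of the SI adventitial-like cluster. LI ICC-like cells held 21.5 CPM (13.5 to 32.5). Over the 17 class-by-library sums the log2 levels of Sema3d and Sema3f had a Pearson r of -0.78, the most negative of the 28 pairs among the 8 genes. These points share 2 libraries and differ in depth, so the value is a description only.

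**Figure D1:**
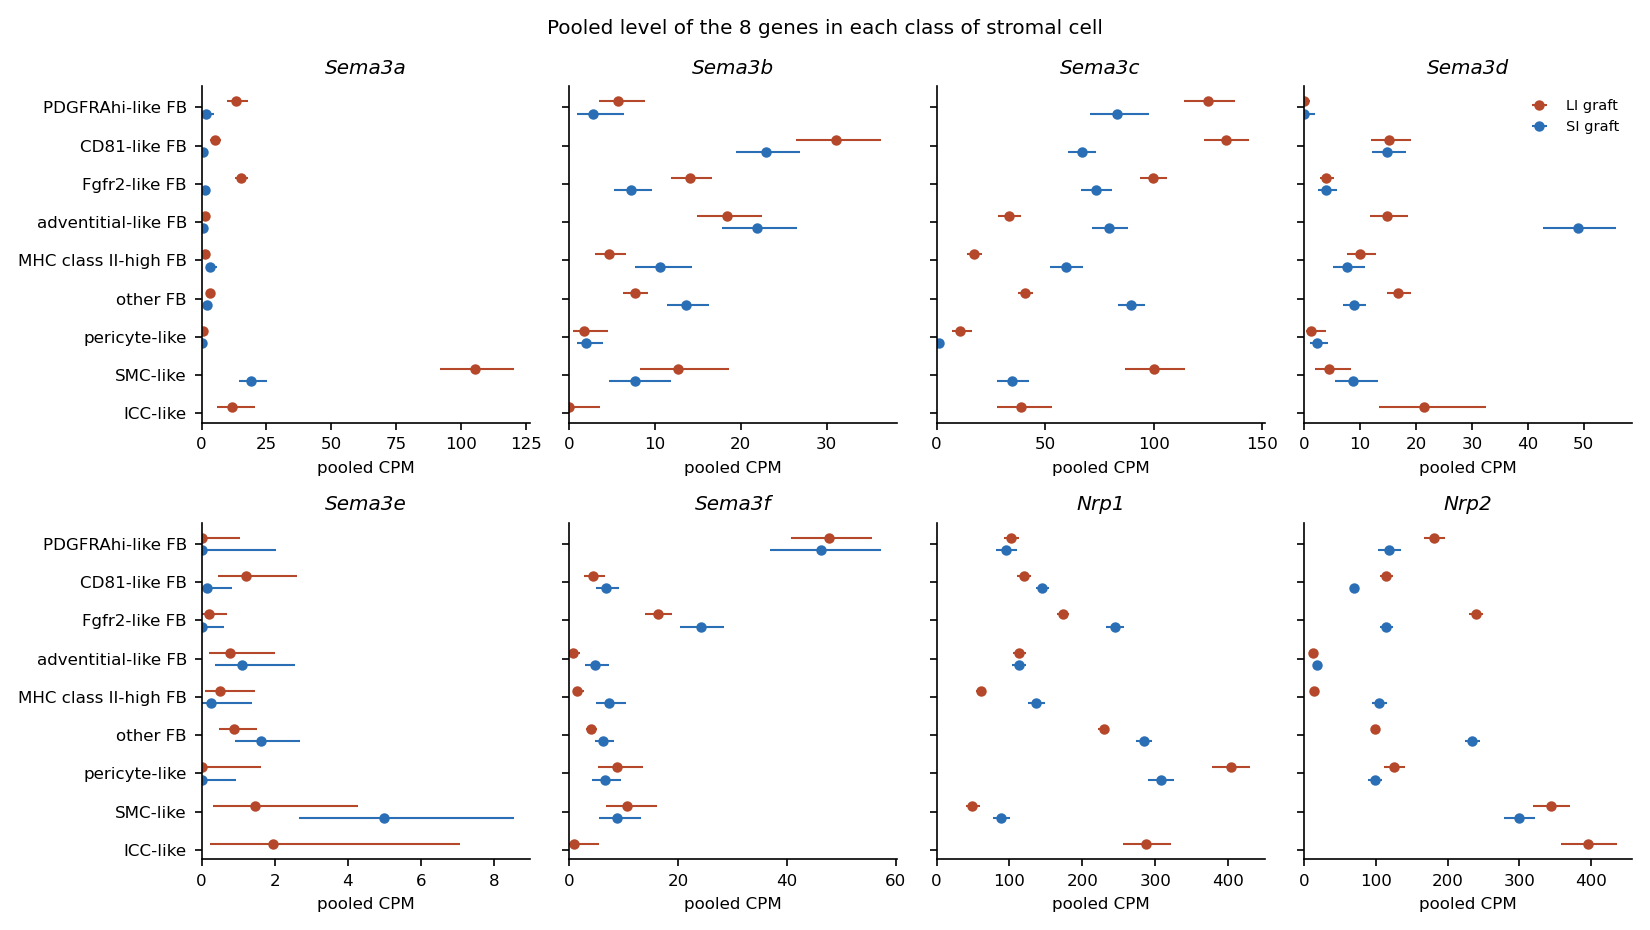
Pooled level (CPM, x axis, a scale of its own for each gene) of the 8 genes in each class with at least 50 cells (y axis), LI graft in red and SI graft in blue, with exact 95% Poisson intervals. Sema3a stands highest in SMC-like cells, Sema3f in PDGFRAhi-like FB at 47.8 and 46.3 CPM, and Sema3d is at 0 in PDGFRAhi-like FB of both grafts.

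Sema3c, which can signal through either neuropilin, was the semaphorin spread over most fibroblasts. LI levels ran from 133 CPM (123 to 144) in CD81-like and 125 CPM in PDGFRAhi-like FB down to 17.2 CPM in MHC class II-high FB. SI levels were flatter, from 89.7 CPM in the other FB to 59.4 CPM in MHC class II-high FB, and the neighbours in that order did not differ beyond counting error. The SI other FB were uneven, since 1 cluster of 334 cells led by Stmn4 and Pcolce2 held 222 CPM and another of 738 cells led by Jam2 held 10.1 CPM. Pericyte-like cells were lowest in both grafts, at 10.96 CPM (7.09 to 16.2) in LI and 1.01 CPM (0.275 to 2.58) in SI. SMC-like cells differed, at 99.9 CPM in LI and 34.6 CPM in SI.

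Sema3e, the ligand of plexin D1, was near the limit of detection at this depth. It had 39 UMIs in all LI cells and 36 in all SI cells, or 0.739 and 0.798 CPM. The highest class was SI SMC-like cells at 4.99 CPM (2.66 to 8.54, 13 UMIs), above the next SI class beyond counting error, whereas LI SMC-like cells had 3 UMIs. PDGFRAhi-like FB and pericyte-like cells had no UMI in either graft. Its receptor gene Plxnd1 was by contrast highest in pericyte-like cells among the 8 classes read for plexins, at 78.9 CPM in LI and 101 CPM in SI.

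Nrp1, the receptor for Sema3a and for vascular endothelial growth factor, was highest in pericyte-like cells among the classes with 50 or more cells. LI pericyte-like cells held 403 CPM (378 to 430.2) and SI ones 308 CPM (291 to 325), with a UMI in 69.4% and 66.2% of cells. Among those classes SMC-like cells were lowest in both, at 49.2 CPM (40.1 to 59.8) and 88.3 CPM (77.3 to 100.5), although the class above them, MHC class II-high FB in LI and PDGFRAhi-like FB in SI, did not differ from them beyond counting error. Since endothelial cells are rich in Nrp1, 6 endothelial markers were read beside it. Their summed level in pericyte-like cells was 68.4 CPM in LI and 61.8 CPM in SI, the highest of the classes read. In each graft 1 of the 6 was raised there, and Cldn5 was at 0 in LI. A single LI pericyte-like cell held 101 of the 920 Nrp1 UMIs of its class. Pericyte-like cells with no UMI of any endothelial marker, an alternative chosen after seeing the data, held 365 CPM in LI (465 of 523 cells) and 297 CPM in SI (621 of 733 cells).

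The fibroblast cluster with the highest Nrp1 in each graft was singled out after its values were seen. In the LI graft an FB cluster of 711 cells led by Kcnn3 and Jam2 held 342 CPM, and in the SI graft a cluster of 738 cells led by Jam2 and Fibin held 488 CPM, more than the pericyte-like cells. Kcnn3, Jam2, Car8, Chodl, Tmem229a and Fibin were among the 10 leading genes of both. These clusters were also the highest in Nrp2 among the SI FB clusters, at 449 CPM, and level with LI Fgfr2-like FB at 244 CPM in the LI graft. Sema3c was 43.8 CPM in the LI and 10.1 CPM in the SI cluster, and Sema3f was 1.16 and 1.84 CPM. The remaining LI Nrp1 order was ICC-like at 287 CPM, the other FB as a whole (the Jam2 cluster included) at 229 CPM, Fgfr2-like FB at 173 CPM, CD81-like FB at 119.6 CPM, adventitial-like FB at 114 CPM, PDGFRAhi-like FB at 103 CPM and MHC class II-high FB at 60.8 CPM. In SI it was the other FB as a whole at 285 CPM, Fgfr2-like FB at 244 CPM, CD81-like FB at 145 CPM, MHC class II-high FB at 137 CPM, adventitial-like FB at 113 CPM and PDGFRAhi-like FB at 94.9 CPM. The 32 SI ICC-like cells, too few for that order, held 473 CPM (366 to 600.1), above the SI pericyte-like cells.

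Nrp2, the receptor for Sema3f and for lymphatic growth factors, followed another order. Among classes with 50 or more cells in both grafts it was highest in SMC-like cells, at 344 CPM (319 to 371) in LI and 299.9 CPM (279 to 322) in SI, with a UMI in 71.8% and 71.6% of cells. The SI Jam2 cluster, a part of the other FB, held 449 CPM, more than the SI SMC-like cells. LI ICC-like cells held 395 CPM (358 to 436), and the 32 SI ICC-like cells 1171 CPM (999 to 1363). Lymphatic endothelial cells are rich in Nrp2, and 3 lymphatic markers summed to 97.6 CPM in LI and 28.2 CPM in SI ICC-like cells. In both, 1 of the 3 was raised and Mmrn1 was at 0, and their part in the Nrp2 level was not tested. Adventitial-like FB were lowest in both grafts, at 12.9 CPM (9.99 to 16.4) and 18.6 CPM (14.8 to 23.0), with a UMI in 13.6% and 9.71% of cells. LI MHC class II-high FB were as low, at 14.4 CPM, whereas SI cells of that name held 105 CPM.

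**Figure D2:**
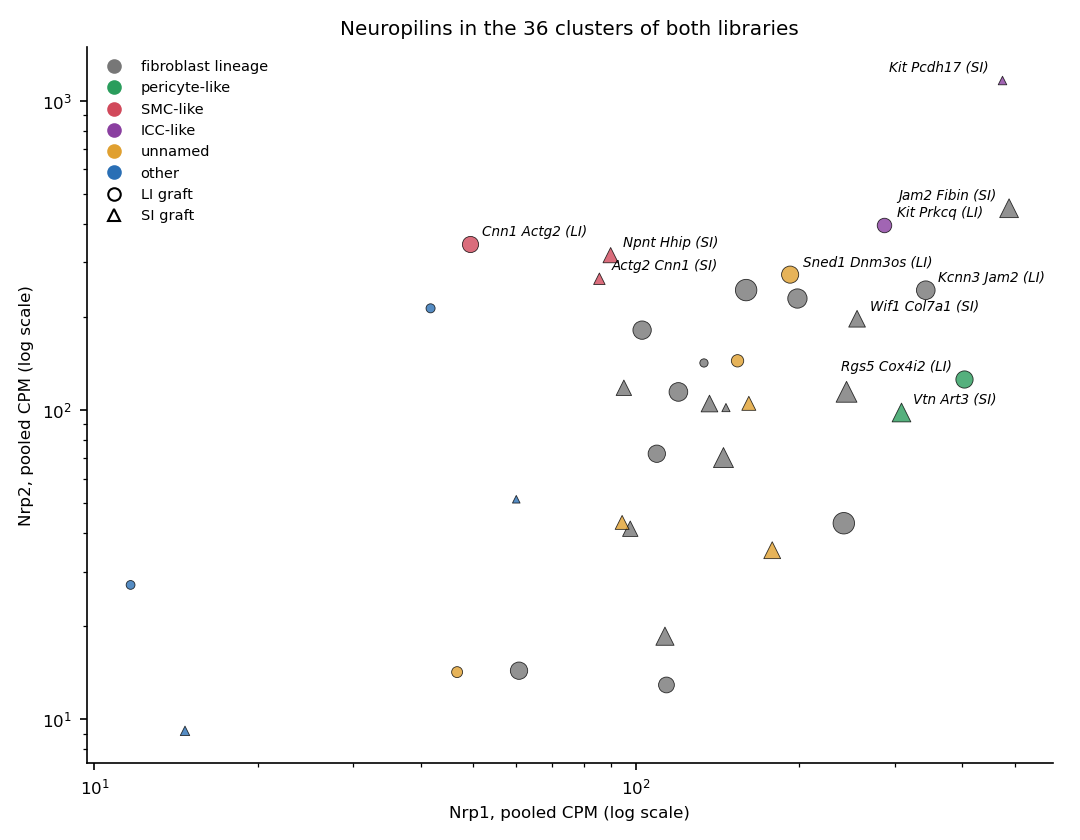
Each point is 1 of the 36 clusters, placed by its pooled Nrp1 (x axis) and Nrp2 (y axis) level in CPM on log scales, circles for LI and triangles for SI clusters, area growing with the number of cells, and clusters over 250 CPM in either gene named by their first 2 leading genes. Pericyte-like clusters lie to the right, SMC-like clusters at upper left, and the Jam2 clusters and ICC-like clusters are high in both.

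The balance of the 2 neuropilins differed between classes. Of all neuropilin UMIs, 76.2% in LI and 75.7% in SI pericyte-like cells were Nrp1, against 12.5% and 22.7% in SMC-like cells. Adventitial-like FB were at 89.8% and 85.9%. Fgfr2-like FB differed between grafts, at 41.9% in LI and 68.1% in SI. The 7 pericyte markers summed to 124 CPM in LI and 1237 CPM in SI Fgfr2-like FB, with none raised in either, against 6505 CPM in SI pericyte-like cells, and their part in that share was not tested. Because these are UMIs of 2 different genes, only the change of the share between classes is read here, not which gene is the more abundant.

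To compare cells at 1 depth, each cell was thinned to 2000 UMIs, which left out 695 LI and 512 SI cells as too shallow. Both neuropilins were then found in 6.38% of LI cells, where the product of their separate shares is 6.18%, and in 7.90% of SI cells, where it is 6.28%. Among SI other FB, which hold the Jam2 cluster, 19.3% of cells had both against a product of 15.03%. In SMC-like cells 41.3% in LI and 36.9% in SI had Nrp2 only, and in pericyte-like cells 39.0% and 35.4% had Nrp1 only. At least 1 of the 6 semaphorins was found in 37.6% of LI and 14.6% of SI SMC-like cells, but in 2.52% and 2.65% of pericyte-like cells. Pericyte-like cells thus had neuropilin UMIs with few semaphorin UMIs.

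**Figure D3:**
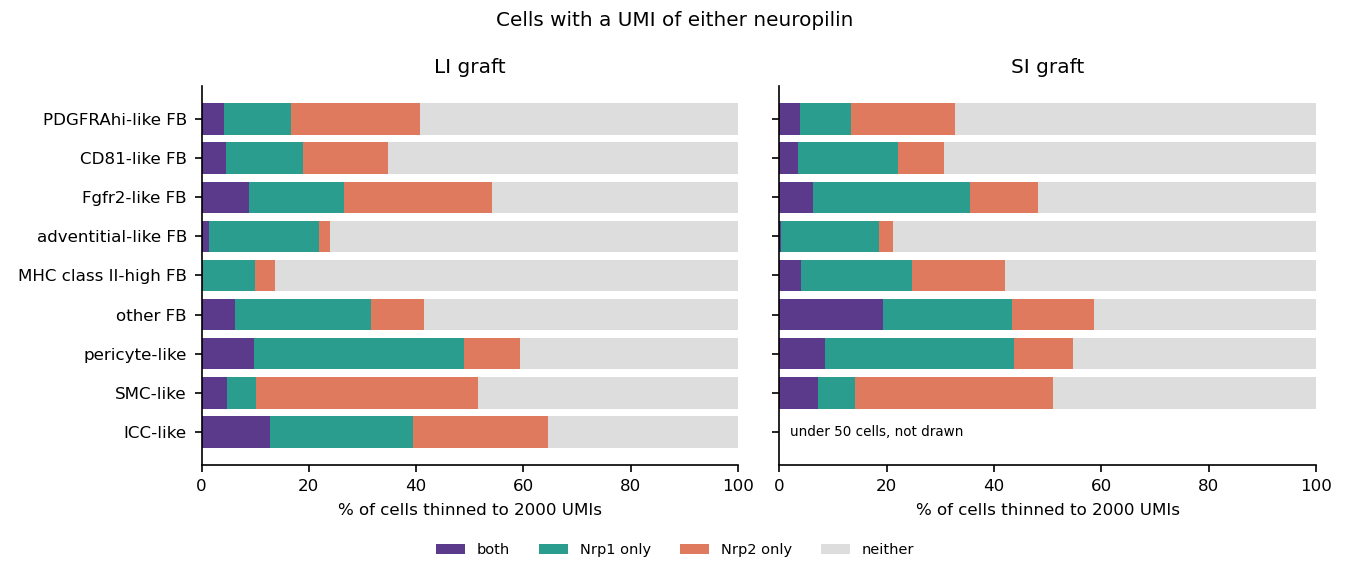
Share of cells (x axis, percent) with a UMI of both neuropilins, of Nrp1 only, of Nrp2 only or of neither, after each cell was thinned to 2000 UMIs, by class (y axis) and graft. Nrp1-only cells are most frequent in pericyte-like cells (39.0% in LI) and Nrp2-only cells in SMC-like cells (41.3% in LI), and the SI ICC-like class is not drawn because it has under 50 cells.

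The grafts were compared by the ratio of their pooled CPM, with 1 CPM added to each, and a gene was counted as past 2-fold where the ratio was at least 2 in either direction and its interval excluded no difference, among genes at 10 CPM or more in 1 library. In fibroblast-lineage cells none of the 6 members at that level was past 2-fold, where 3.85% of 8645 genes were. Sema3a was 6.60 CPM in LI and 1.58 CPM in SI (log2 ratio 1.56, interval 1.27 to 1.84) and so was under the level required. With 5 CPM added in place of 1, its log2 ratio was 0.82 (0.68 to 0.94). The others were within a log2 ratio of -0.31 to -0.05, with Nrp1 at 158 CPM in LI and 195 CPM in SI (-0.30, interval -0.35 to -0.25) and Nrp2 at 118 and 125 CPM (-0.08). In all retained cells 1 of 7 members was past 2-fold, against 4.08% of 8832 genes. That gene was Sema3a, at 10.6 CPM (9.73 to 11.5) in LI and 2.59 CPM (2.14 to 3.11) in SI, a log2 ratio of 1.69 (1.47 to 1.91).

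The shares of the named classes were then set equal. This evens out names only, since most fibroblast classes hold largely different clusters in the 2 grafts. With both libraries set to the same mix of the 8 classes, Sema3a was 11.3 CPM in LI and 2.48 CPM in SI, a log2 ratio of 1.82 against 1.67 as found in those classes. The interval lay above no difference in 4 of the 8 classes and below it in none. In SMC-like cells, whose LI and SI members clustered together, the log2 ratio was 2.40 (1.96 to 2.85). The 6 smooth muscle markers summed to 7038 CPM in LI and 14292 CPM in SI SMC-like cells, all 6 raised in both, and the 7 pericyte markers to 336 and 706 CPM, with 1 raised in SI. Their part in the Sema3a ratio was not tested. The sources name a 3′ and a 5′ kit without saying which library had which, so chemistry and graft type cannot be told apart here.

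Within classes, members past 2-fold were counted beside all genes past 2-fold in the same class. The count was 1 of 5 in PDGFRAhi-like FB (10.8% of all genes), 0 of 5 in CD81-like FB (4.14%), 2 of 6 in Fgfr2-like FB (5.09%), 2 of 5 in adventitial-like FB (16.5%), 4 of 5 in MHC class II-high FB (19.9%), 2 of 5 in the other FB (6.04%), 1 of 3 in pericyte-like cells (5.34%) and 2 of 6 in SMC-like cells (6.94%). The SMC-like genes were Sema3a and Sema3c (log2 1.51, interval 1.15 to 1.87), both higher in LI, and in the same cells Nrp2 differed little (0.20) and Nrp1 was lower in LI (-0.83, interval -1.18 to -0.49). The pericyte-like gene was Sema3c, at 25 UMIs in LI and 4 in SI. The 6 smooth muscle markers summed in those cells to 1271 CPM in LI, with 3 raised, and 1864 CPM in SI, with 1 raised. Their part in the Sema3c change was not tested. In Fgfr2-like FB Sema3a and Nrp2 were higher in LI, Nrp2 at 239 CPM against 115 CPM. In the other FB Nrp2 ran the other way, at 99.1 CPM in LI and 235 CPM in SI (log2 -1.23, interval -1.33 to -1.14), as did Sema3c, at 40.9 and 89.7 CPM (-1.12, interval -1.27 to -0.96). The Jam2 cluster made up 738 of the 1560 SI and 711 of the 2527 LI other FB, and the 7 pericyte markers summed to 775 and 262 CPM with none raised. The part of either in these ratios was not tested. All 4 genes in MHC class II-high FB (Sema3b, Sema3c, Nrp1 and Nrp2) were lower in LI, with Nrp2 at 14.4 against 105 CPM (log2 -2.79, interval -3.11 to -2.47). Those cells were mostly male in both grafts (62.3% and 60.2% called male), and in LI the other classes of at least 50 cells apart from the other FB were at most 6.12% male. Summed endothelial markers were 6.28 CPM in the LI and 58.9 CPM in the SI cells of that class, the 7 pericyte markers 119.7 and 712 CPM with none raised, and the 7 mesothelial markers 109 CPM with 1 raised and 3.45 CPM with none. The part of these in the 4 differences was not tested.

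Read by sex, the fibroblast-lineage ratios split. In female cells (5618 LI, 2994 SI) Sema3a was 7.90 CPM in LI and 1.68 CPM in SI (log2 1.73, interval 1.35 to 2.10). In male cells (652 LI, 1170 SI) it was 2.16 and 1.26 CPM (0.48, interval -0.27 to 1.19). Male LI cells were lower than male SI cells in Sema3b (2.93 against 16.4 CPM), Sema3c (32.2 against 100.7 CPM), Sema3f (3.09 against 12.1 CPM), Nrp1 (76.4 against 147 CPM, log2 -0.94, interval -1.09 to -0.79) and Nrp2 (31.5 against 93.7 CPM). Female LI and SI cells were at 15.03 and 12.9 CPM for Sema3b, 76.4 and 58.4 CPM for Sema3c, 11.2 and 10.6 CPM for Sema3f, 180 and 222 CPM for Nrp1 and 141 and 148 CPM for Nrp2. Since 332 and 293 of the 652 male LI fibroblast-lineage cells lay in 2 clusters, sex and class cannot be told apart in that library.

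**Figure D4:**
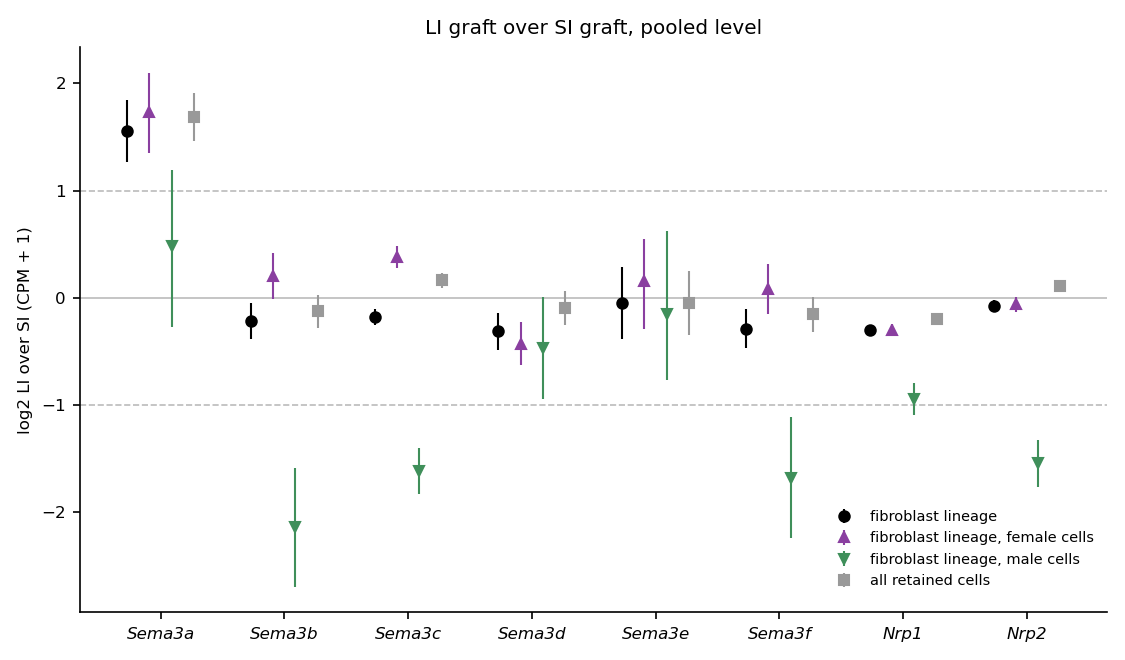
Log2 ratio of the LI over the SI level (pooled CPM plus 1, y axis) for the 8 genes (x axis) in fibroblast-lineage cells, in their female and male cells and in all retained cells, with 95% counting intervals and dashed lines at 2-fold. Sema3a is above the line in all but the male cells, while Sema3b, Sema3c, Sema3f and Nrp2 drop below -1 in male cells only.

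The class that ranked first was the same in both grafts for 5 of the 7 members with 10 CPM or more in a class of each, where 39.4% of 9667 genes had the same first class among the 8 compared. These were Sema3a and Nrp2 (SMC-like), Sema3b (CD81-like FB), Sema3f (PDGFRAhi-like FB) and Nrp1 (pericyte-like). For Nrp2 and Nrp1 this holds by class only, since the SI Jam2 cluster within the other FB held more, at 449 and 488 CPM. The exceptions were Sema3c, first in CD81-like FB in LI and in other FB in SI, and Sema3d, first in other FB in LI and in adventitial-like FB in SI. Of these 4 first places only that of Sema3d in SI was beyond counting error of the next class.

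Plexins, the signalling receptors beside the neuropilins, were read next. None of the 4 plexin genes at 10 CPM or more in fibroblast-lineage cells was past 2-fold. Plxna2 was nearest, at 26.4 CPM in LI and 13.0 CPM in SI (log2 0.97, interval 0.81 to 1.12), and in all retained cells it was past 2-fold at 1.07. Plxna4 was at 19.5 and 14.1 CPM, Plxnb2 at 53.0 and 61.4 CPM and Plxnd1 at 24.4 and 23.8 CPM. Below the required level lay Plxna1 (6.62 and 9.72 CPM), Plxna3 (3.96 and 2.88 CPM), Plxnb1 (1.99 and 2.26 CPM) and Plxnc1 (2.596 and 6.65 CPM), and Plxnb3 had no UMI in fibroblast-lineage cells. By class, the type A plexins, which pair with neuropilins, had Plxna4 at 50.2 and 38.4 CPM in SMC-like cells. In Fgfr2-like FB Plxna2 was 82.7 and 30.7 CPM and Plxna4 41.0 and 36.5 CPM. Pericyte-like cells, highest in Nrp1 among the classes with 50 or more cells, had Plxna4 at 1.75 and 1.01 CPM, Plxna2 at 9.20 and 4.29 CPM, Plxna1 at 7.89 and 11.3 CPM and Plxna3 at 0.438 and 1.76 CPM. They held, of the 8 classes read for plexins, the most Plxnd1, Plxnb2 and Plxnb1.

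**Figure D5:**
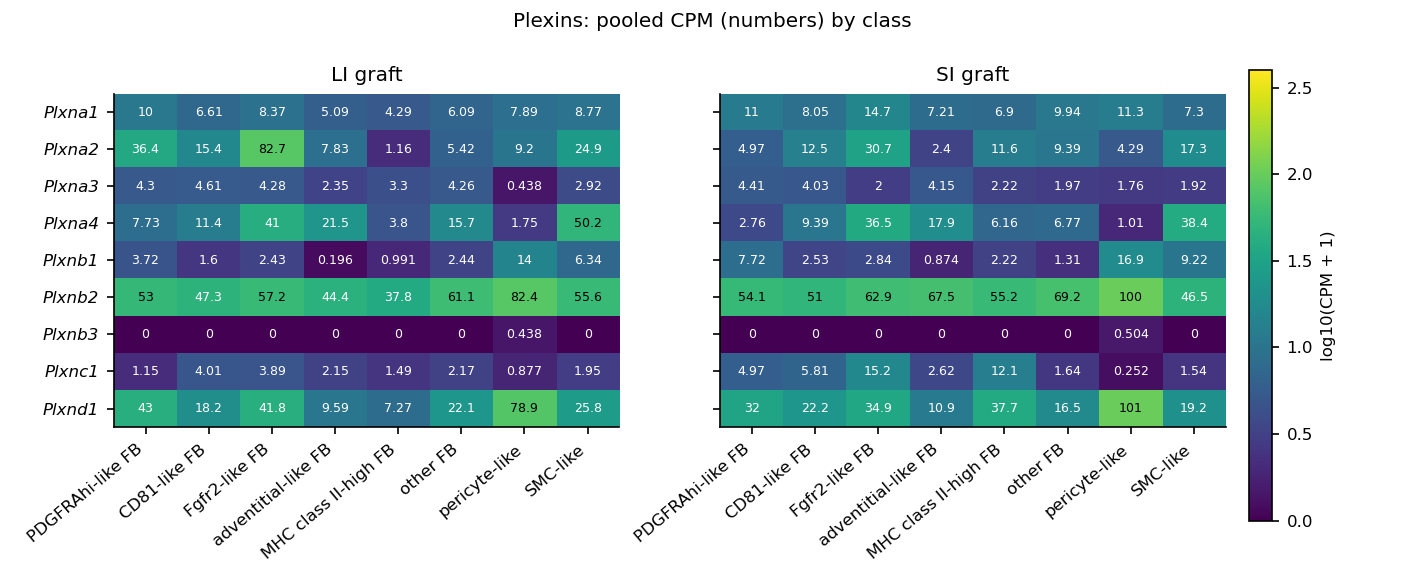
Pooled level of the 9 plexin genes (rows) in each class (columns) of the LI graft (left) and the SI graft (right), with the CPM written in each cell and shaded as log10 of CPM plus 1. Among the classes drawn, which leave out ICC-like cells, Plxnd1 is highest in pericyte-like cells (78.9 and 101 CPM), Plxna2 in Fgfr2-like FB and Plxna4 in SMC-like cells (50.2 and 38.4 CPM).

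Of the 56 other genes listed for the pathway, 32 were at 10 CPM or more in the fibroblast lineage of at least 1 graft, and 3 of these (9.38%, against 3.85% of all 8645 genes) were past 2-fold, 2 higher in LI and 1 in SI. None was among the 4 plexins, 5 other semaphorins or 14 genes of signalling below plexins at that level, and all 3 were among 9 other ligands and partners of neuropilins. Chl1, a relative of L1CAM that can partner neuropilin-1, was 23.1 CPM in LI and 8.70 CPM in SI (log2 1.32, interval 1.14 to 1.49), and LI adventitial-like FB held 91.0 CPM. Flt1, a receptor for vascular endothelial growth factor and placental growth factor, was 10.5 and 2.6 CPM (1.67, interval 1.41 to 1.93) and was highest in LI MHC class II-high FB at 46.7 CPM. Pgf, the placental growth factor that binds Flt1 and neuropilins, was lower in LI, at 15.4 against 32.5 CPM (-1.03, interval -1.16 to -0.89), and SI Fgfr2-like FB held 60.4 CPM.

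The study split PDGFRAhi FB of adult colon by CD9 and CD141, the product of Thbd, with a further cluster of intermediate CD141. It reported high Sema3a in the CD9-high cells without CD141. In the grafts the members were compared on 2 sides set by the presence of a UMI, which are not those clusters. After thinning to 2000 UMIs, LI PDGFRAhi-like FB had 152 cells with Cd9 and no Thbd UMI and 141 with Thbd and no Cd9 UMI. A further 361 LI and 141 SI cells had a UMI of both genes or of neither and were left out. The LI cells of the Cd9 side held 6 Sema3a UMIs and those of the Thbd side 1, a log2 ratio of 2.19 with an interval of -0.52 to 4.46, so a difference was not detectable at this depth. In the SI graft 58 and 92 such cells held 0 and 1 Sema3a UMIs, and no ratio can be read. Sema3f had 17 UMIs against 6 in LI (55.9 and 21.3 CPM, log2 1.35, interval -0.02 to 2.88) and 13 against 10 in SI (112 and 54.3 CPM, 1.03, interval -0.26 to 2.35), higher on the Cd9 side in both with both intervals holding no difference. Nrp2 was lower on the Cd9 side in LI, at 181 against 262 CPM (-0.53, interval -1.06 to -0.01). In SI it was 155 against 125 CPM (0.31, interval -0.66 to 1.26), which held no difference.

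Genes with the most similar pattern were sought over the 17 class-by-library sums among 10895 genes, as Pearson's r of log2 CPM. For Sema3a these were Wscd2 (0.92), Ccdc106 (0.87) and Cntn3 (0.86). For Sema3b they were the fibrillar collagens Col3a1 (0.90) and Col5a2 (0.89) with the metalloproteinase Mmp23 (0.90). For Sema3c they were Gria3 (0.93), Mdk (0.90) and Dhx32 (0.90), and for Sema3d Flrt2 (0.89), Gas1 (0.88) and Phgdh (0.87). For Sema3f they were the glucocorticoid receptor Nr3c1 (0.91), Bmp5 (0.90), a marker used to name PDGFRAhi-like FB, and the laminin Lamb1 (0.90). Nrp1 was most like Peak1 (0.83), Snrnp35 (0.83) and Zc3h11a (0.82), and Nrp2 most like the phosphodiesterase Pde5a (0.95), AW554918 (0.94) and Mtss1l (0.93). For Sema3e, at most 4.99 CPM in any sum, they were Bag2 (0.89), Mtus2 (0.87) and Wrb (0.85). The points share 2 libraries and their depth, and the best of so many genes is high by selection.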

How the data were processed

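The authors aligned reads with Cell Ranger (3.1.0 per the submitters' processing notes) to mm10 and deposited raw UMI counts per gene and barcode, with no normalization. The annotation release and the study's own filter limits were not given in the sources used here. Barcodes with under 500 genes or over 10% mitochondrial UMIs were removed. Scrublet (scanpy 1.11.5) called 0 LI and 1 SI doublets by its own threshold, so the highest scores were removed at 0.8% per 1000 barcodes (991 and 651 of the passing cells). Each library was clustered alone in Seurat 5.3.0 (2000 variable genes, 30 components, cell cycle regressed, resolution 0.8). The 8 genes, the pathway genes, Cd9, Thbd and sex-linked genes were barred from the variable genes.

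A cluster was named from marker lists by its mean log2 level against other cells (pseudocount 10 CPM). A non-fibroblast class needed a mean of 1.0, 3 raised markers and a lead of 0.5, and a fibroblast subset 0.5, 3 markers and a lead of 0.3. These limits were chosen with the clusters already in view. The members and lists were chosen with earlier results of these data known. Vegfd was matched by Ensembl identifier, as the files list it under an older symbol. The genes named are the 8 members and the 9 plexins in any case, other pathway genes past 2-fold in fibroblast-lineage cells, and for each member the 3 most similar genes.

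Counts were pooled by class and library. Ratio intervals come from the exact binomial split of the UMIs, with a pseudocount of 1 CPM. With 1 library per group there are no p-values. The ratio and its call were tested on simulated data. Alternatives were other filters, clustering settings, scalings (edgeR 4.0.16), depths and sexes, and 1 was added after the data were seen.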

Additional observations from a re-analysis of the deposited data

Results flagged for a closer look

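In the LI over SI ratio of fibroblast-lineage cells, female and male cells moved in opposite directions for 4 genes, on the log2 scale. Sema3b was 0.20 in female and -2.14 in male cells, Sema3c 0.38 and -1.61, Sema3f 0.081 and -1.68 and Sema3e 0.16 and -0.16. The difference between the sexes was not tested, since the cells of both sexes in a graft come from its 1 library. The intervals of Sema3e in both sexes and of Sema3b and Sema3f in female cells held no difference. Male LI cells were 9.09% of that library and lay mostly in the MHC class II-high FB and the cluster led by Areg and Ereg.

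In PDGFRAhi-like FB, the ratio of cells with Cd9 and no Thbd over cells with Thbd and no Cd9 had opposite signs in the 2 grafts for Sema3c and Nrp2, and this was not tested either. Sema3c was 0.039 in LI and -0.65 in SI, and Nrp2 -0.53 in LI and 0.31 in SI. Of these 4 values only the LI value of Nrp2 had an interval without 0. Sema3a was 2.19 in LI, and its computed SI value of -2.69 comes from 0 UMIs against 1, so no direction can be read there.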

How the results depend on the processing

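The number of members past 2-fold between grafts in fibroblast-lineage cells (0) was 4 of 5 in male cells, where 14.1% of all genes were, and 1 of 8 with no minimum level (2.08% of all genes), and that in all retained cells (1) was 0 of 6 under the stricter filter (3.87%) and 2 of 4 in male cells (13.4%). Under the stricter filter Sema3a was 9.20 CPM in LI. Other pathway genes past 2-fold (3) were 11 in male cells and 5 with no minimum. Members with the same first class (5 of 7) were 3 of 7 with 15 components (44.3% of all genes) and 3 of the 3 at the required level in male cells (53.7%). Sema3a on the Cd9 side over the Thbd side was -0.53 in LI with each cell assigned by its own score, and in SI (main -2.69, 0 UMIs against 1) it was 1.02 by own score, -0.29 with both libraries clustered together, -3.47 with no doublet removal and -3.69 in female cells. The sign of the fibroblast-lineage ratio turned for Nrp2 (main -0.08) with no doublet removal (0.033), at resolution 0.4 (0.016), by own score (0.23) and after thinning (0.031), for Sema3c (main -0.18) in female cells (0.38), as a mean of per-cell CPM (0.14) and after thinning (0.15), and in female cells for Sema3b (0.20) and Sema3f (0.081). Nrp1 (main -0.30) kept its sign, between -0.94 in male cells and -0.16 by own score. Sema3e (main -0.047), whose intervals, where one could be computed, held no difference, lay between -0.16 and 0.23 and was above 0 under 8 of the 16 alternatives. The cause was not tested. The Sema3a ratio (main 1.56) was 0.82 with a pseudocount of 5 CPM, which by construction shrinks ratios of low levels. The Sema3a ratio in SMC-like cells stayed between 2.10 and 2.85 over 14 alternatives. Leaving out pericyte-like cells with an endothelial marker UMI, added after seeing the data, moved Nrp1 from 403 to 365 CPM in LI and from 308 to 297 CPM in SI. No paired analysis was possible because each group holds 1 library, and for the same reason no library could be left out. Depth limits Sema3e and every class under 50 cells.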

Other observations

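The 2 clusters with Rcan2, Nrip2 and Sorbs2 among their leading genes, and the contractile gene Pln first in the LI one, met the marker rule of no class. The LI one (85 cells) held 46.7 CPM of Nrp1 and 14.2 CPM of Nrp2, and the SI one (478 cells) 178 and 35.2 CPM. Both were below SMC-like cells in Nrp2 and had no Sema3a UMI. Sema3f was at 6.09 CPM in the LI and 14.3 CPM in the SI cluster.

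An SI cluster of 461 FB led by Wif1, with 1 male cell in it, held 256 CPM of Nrp1 and 197 CPM of Nrp2 and had 0.374 CPM of Sema3d. Bmp7, a marker used to name PDGFRAhi-like FB, was among its leading genes. Its Sema3f was 7.85 CPM, against 46.3 CPM in SI PDGFRAhi-like FB. The LI cluster led by Areg and Ereg held 0.520 CPM of Sema3d and 109 CPM of Nrp1.

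In 36 LI cells with mesothelial markers, whose leading genes also include the kidney tubule genes Slc34a1 and Miox, Sema3a was 54.4 CPM (29.7 to 91.3), Sema3c 163 CPM (118 to 221) and Sema3d 77.7 CPM (47.5 to 120.04), with Nrp1 at 11.7 CPM. In 47 epithelial-like SI cells Nrp1 was 14.7 CPM, Nrp2 9.18 CPM and Sema3b 27.5 CPM (15 UMIs). In 40 immune-like LI cells Nrp2 was 213 CPM (156 to 284), from 8 of the cells.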
